A study of Arabidopsis thaliana with 2 samples.

Results

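The 6 genes described here, COR15A, COR15B, COR47, LTI30, XERICO and PUB19, belong to the response of Arabidopsis thaliana to cold and water loss. Each was found by its symbol among the probe sets that the platform annotation ties to 1 gene. Each gene had 1 such probe set, so the group holds 6 of the 13436 single-gene probe sets (13286 genes), within 22746 plant probe sets on the array. LTI30 and PUB19 were chosen by the difference between their signals on the arrays, and the other members were also chosen with earlier results of these data known. All values below are therefore a description, and no test was run.

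Transcripts were measured in 2 hypocotyl samples, called sample 1 and sample 2, each on its own Affymetrix ATH1 array. Both came from plants of the Col ecotype at growth stage 6.0, kept in a phytotron at 22 °C on compost and vermiculite under short days (light for 8 h, dark for 16 h), with Intercept given in the first watering. The labels name no cold, drought or hormone treatment, and they give both samples the same description, so they form 1 group and no conditions can be compared. Whether separate plants were sampled, and how many, is not stated in them, so differences between them may be technical.

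When Arabidopsis is chilled, CBF transcription factors bind the C-repeat element in the promoters of cold-regulated (COR) genes. Water loss raises the hormone abscisic acid, which acts through its own promoter element, and many COR genes carry both. The proteins made include dehydrins and other late embryogenesis abundant (LEA) proteins, hydrophilic proteins that protect membranes and enzymes as cells dry or freeze. Ubiquitin ligases, which mark other proteins for breakdown, tune this response in both directions. As the tissue is bulk, fewer cells that express a gene and less RNA per cell cannot be told apart.

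Relative to the other plant transcripts on each array, 5 of the 6 genes gave the brighter signal in sample 1, and COR15B gave the brighter signal in sample 2. The log2 ratio of sample 1 over sample 2 ran from -0.32 for COR15B to 0.92 for PUB19 and COR15A, with a median of 0.59 over the 6 genes. Over the 19379 plant probe sets above the lower detection limit on both arrays the median was -0.01, and 48.2% were brighter in sample 1. Without LTI30 and PUB19 the median of the other 4 genes was 0.38. At 1.5-fold or more, 3 of the 6 genes (COR15A, LTI30 and PUB19) were brighter in sample 1, and 3.68% of those plant probe sets were. The choice of members used this same difference, so nothing is read from that count. COR15A was not above the stricter detection limit described below. Without it 2 of 5 genes reached 1.5-fold, where 1.6% of plant probe sets above that limit did. These 2 are LTI30 and PUB19, which were picked for this difference, so nothing is read from this count either. None of the 6 reached 2-fold. Of the plant probe sets above the lower limit, 0.908% did so toward sample 1 and 2.34% toward sample 2.

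Detection was judged against control probe sets for Bacillus transcripts, which plant RNA should not light up. The lower limit is the brightest TrpnX control, at 2.5 in sample 1 and 3.3 in sample 2. The stricter limit is the brightest of all 27 Bacillus controls, at 13.1 in sample 1 and 12.6 in sample 2. All 6 genes were above the lower limit on both arrays, as were 85.2% of plant probe sets. COR15B, COR47, LTI30, XERICO and PUB19 were also above the stricter limit on both arrays, as were 70.0% of plant probe sets. COR15A was above it in sample 1 alone. Signals are not compared between genes, because equal amounts of RNA can light up different probes unequally.

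**Figure D1:**
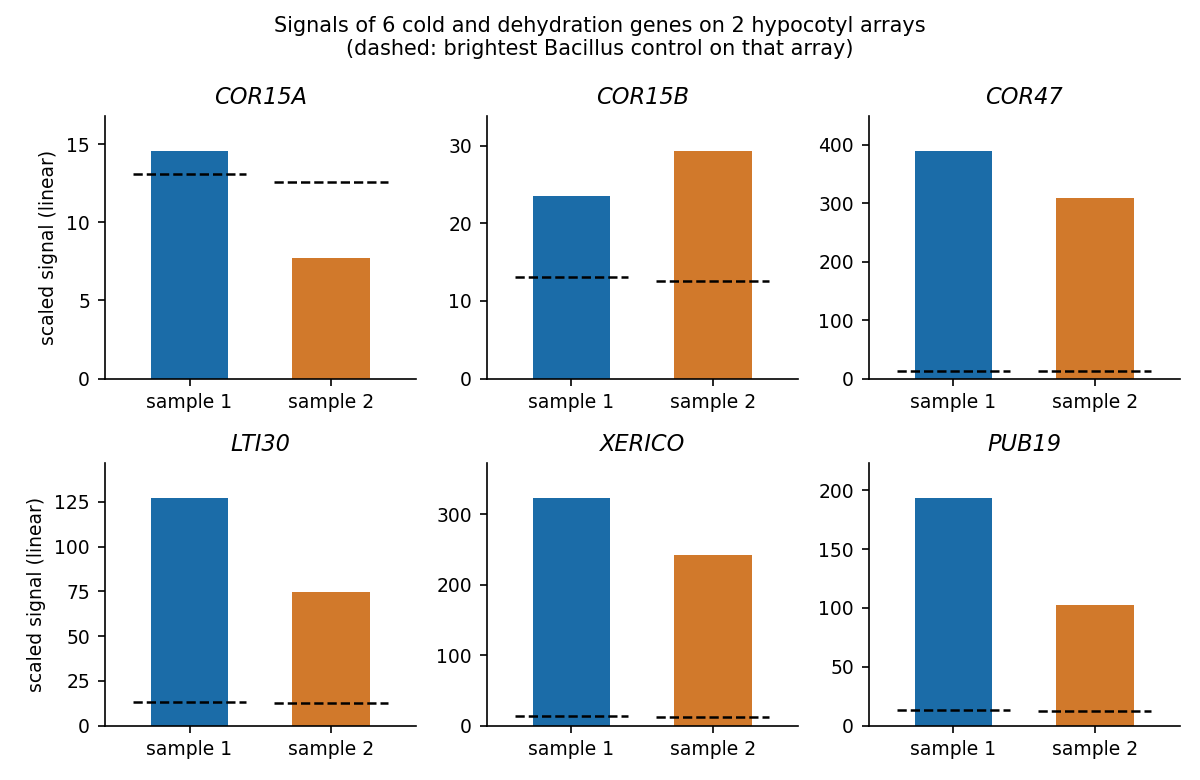
Scaled signal (linear axis from 0, a different range in each panel) of the 6 genes in sample 1 (blue) and sample 2 (orange), 1 array each, with a dashed line at the brightest Bacillus control on that array. COR15A passes the dashed line in sample 1 (14.6 against 13.1) and not in sample 2 (7.70 against 12.6), and COR15B is the gene with the taller bar in sample 2.

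COR47 and LTI30 encode dehydrins. COR47, an acidic dehydrin that accumulates in cold and drought, had signals of 390.0 in sample 1 and 308 in sample 2, a mean of 349 ± 57.8 (SD, n = 2). Both signals were far above the stricter limit, by 29.8 times in sample 1 and 24.5 times in sample 2. The difference was 1.27-fold, for a log2 ratio of 0.34. Among the 2466 plant probe sets with mean signals from 200 up to 500, where the SD of the log2 ratio was 0.20, 61 including COR47 (2.47%) had a ratio that large toward sample 1.

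LTI30, also called XERO2, is a basic dehydrin that binds membranes and is induced by low temperature and abscisic acid. It had signals of 127 in sample 1 and 74.7 in sample 2, a mean of 101 ± 37.2 (SD, n = 2). The difference was 1.70-fold, for a log2 ratio of 0.77, and both signals were above the stricter limit, by 9.72 and 5.93 times. The range of mean signals from 100 up to 200 held 3266 plant probe sets with an SD of the log2 ratio of 0.22. LTI30 was 1 of 9 of them (0.276%) with a ratio at least as large toward sample 1, a place that follows from how it was picked.

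COR15A and COR15B encode closely related LEA proteins of the chloroplast stroma that stabilise membranes during freezing. In the RefSeq gene table they are next to each other on the chromosome, and their probe sets were brighter on different arrays. COR15A had signals of 14.6 in sample 1 and 7.70 in sample 2, a mean of 11.1 ± 4.88 (SD, n = 2). COR15B had 23.5 in sample 1 and 29.4 in sample 2, a mean of 26.4 ± 4.17. The log2 ratio of the signals as measured was 0.92 for COR15A and -0.32 for COR15B.

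Both COR15 signals lay in the dim range where the arrays differed most. The SD of the log2 ratio was 0.63 for plant probe sets with mean signals under 20, where COR15A lies, and 0.35 from 20 up to 50, where COR15B lies. In the first range 188 of 4735 probe sets (3.97%) had a ratio as large as that of COR15A toward sample 1. In the second, 659 of 4034 (16.3%) had a ratio as large as that of COR15B toward sample 2. Because COR15A was not above all Bacillus controls in sample 2, its difference has only a bound there. Its signal in sample 1 was at least 1.16-fold the brightest Bacillus control of sample 2. With 16 added to each signal before log2, which damps dim values, the log2 ratio of COR15A was 0.37 and that of COR15B -0.20.

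XERICO encodes a small RING-H2 ubiquitin ligase whose overexpression raises abscisic acid and drought tolerance. It had signals of 323 in sample 1 and 242 in sample 2, a mean of 283 ± 57.3 (SD, n = 2). The difference was 1.33-fold, for a log2 ratio of 0.42. Among the 2466 plant probe sets with mean signals from 200 up to 500, 38 including XERICO (1.54%) had a ratio as large toward sample 1. XERICO and COR47 thus fell in the same range of signal and gave similar ratios.

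PUB19 encodes a U-box ubiquitin ligase that, with its close relative PUB18, dampens the drought response. It had signals of 194 in sample 1 and 102 in sample 2, a mean of 148 ± 64.8 (SD, n = 2). The difference was 1.90-fold, for a log2 ratio of 0.92, and both signals were above the stricter limit, by 14.8 and 8.11 times. Among the 3266 plant probe sets with mean signals from 100 up to 200, 4 including PUB19 (0.122%) had a ratio that large toward sample 1. This place too follows from how the gene was picked.

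In the ranking of all 3488 single-gene probe sets whose signals averaged 100 or more by the ratio toward sample 1, PUB19 came at place 4 and LTI30 at place 9. The probe set at place 10 had a log2 ratio of 0.75 and that at place 11 had 0.71, so LTI30 at 0.77 lay close to where the list of 10 ended. XERICO came at place 60 and COR47 at place 105. With 2 arrays the pattern of a gene is 1 ratio, so no single gene is named for having a like pattern.

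**Figure D2:**
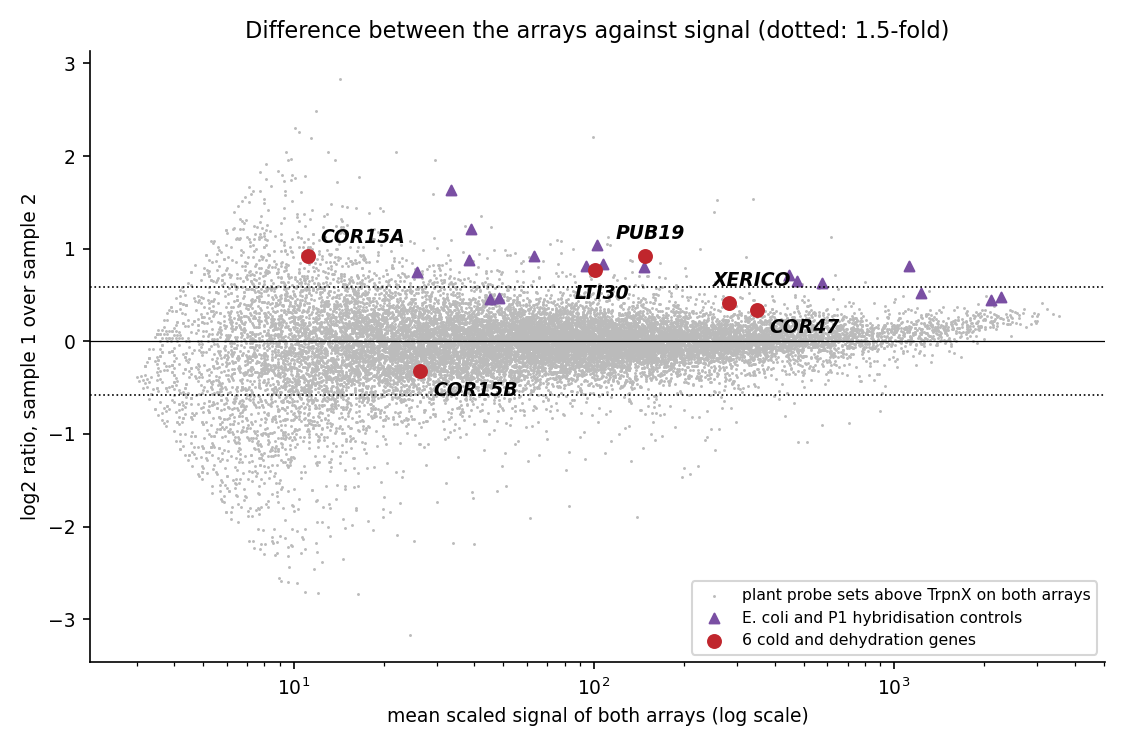
Log2 ratio of sample 1 over sample 2 against the mean scaled signal (log axis) for the 19379 plant probe sets above the lower limit (grey), the 6 genes (red) and 18 hybridisation controls (purple triangles), with dotted lines at 1.5-fold. PUB19 and LTI30 lie above the upper dotted line at signals where the grey cloud is narrow, COR15A lies above it where the cloud is wide, and every triangle lies above 0.

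The hybridisation controls moved the same way as most of the 6 genes. These are E. coli and phage P1 transcripts that are added to the hybridisation mix and not to the plants. All 18 were brighter in sample 1, by log2 ratios from 0.44 to 1.63 with a median of 0.78. The deposited signals are scaled to the mean of each array. When the arrays were scaled to these controls instead, a setting chosen after seeing the data, the median log2 ratio of all plant probe sets above the limit was -0.79. On that scale the median of the 6 genes was -0.19, and LTI30 stood at -0.01, COR47 at -0.44 and XERICO at -0.37, with PUB19 and COR15A at 0.14 each and COR15B at -1.10. This setting moves every ratio by the same amount. The median of the 6 genes therefore stays 0.60 above that of these plant probe sets by construction. LTI30 and PUB19, which were picked for their difference, are part of that median, so nothing is read from this gap. Directions given here are relative to the other plant transcripts on each array, which this setting leaves unchanged. Why the controls differed between the arrays was not tested.

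**Figure D3:**
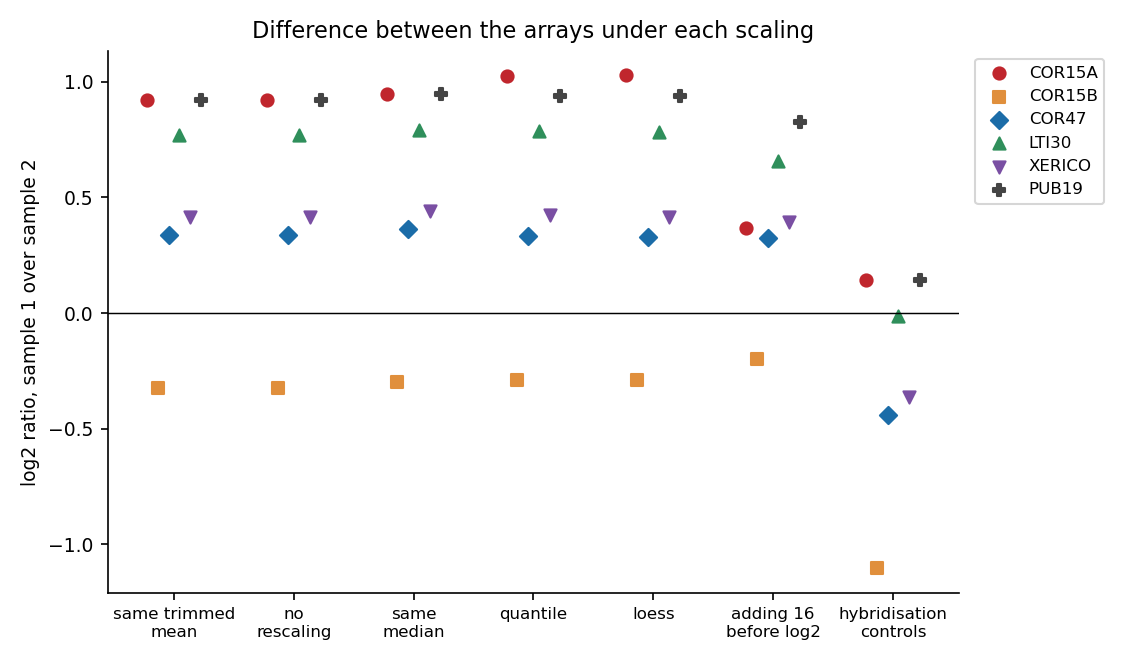
Log2 ratio of sample 1 over sample 2 for each of the 6 genes (symbols) under 7 ways of scaling the arrays or taking the ratio. The genes keep their signs from the same trimmed mean through adding 16 before log2, a step that cannot change a sign and where COR15A drops to 0.37. With scaling to the hybridisation controls all 6 are lower, with PUB19 and COR15A at 0.14.

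Other genes of the same processes or of the same ligase families were taken from lists by locus and by gene name. The U-box and RING-H2 lists by name take in any gene so named, whatever its role, and these genes count in the totals below. The 8 pathway lists by locus hold 121 genes, of which 15 had a single-gene probe set, the 6 members included. The lists of CBF and DREB factors and their regulators (15 genes), of abscisic acid receptors, phosphatases and kinases (20) and of abscisic acid bZIP and related factors (14) had no named probe set here and are not described. The name lists for abscisic acid genes and for DREB, CBF and ERF factors had none either. From all pathway lists 24 further genes were measured, and 16 of these were above the stricter limit on both arrays. Of the 16, 10 were brighter in sample 1 and 6 in sample 2, with a median log2 ratio of 0.15. Over all 15919 plant probe sets above that limit, 49.9% were brighter in sample 1 and the median was -0.0007. At 1.5-fold or more none was brighter in sample 1 (1.6% of plant probe sets were) and 2 were brighter in sample 2 (2.19% were).

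Dehydrins were measured at 5 of the 9 listed loci, all above the lower limit and 3 of them, COR47, LTI30 and AT1G54410, above the stricter one. The median log2 ratio of the 5 was 0.34, and 4 were brighter in sample 1, among them LTI30, which was picked for this difference. Without the members LTI30 and COR47, the median of the other 3 was 0.29, and 2 were brighter in sample 1. AT1G54410, known as HIRD11, a small dehydrin present without stress, had 1921 in sample 1 and 1572 in sample 2, for a log2 ratio of 0.29. Over the 1182 plant probe sets whose signals averaged 500 or more, the median log2 ratio was 0.08, and after loess correction for this trend with signal the ratio of HIRD11 was 0.15, while that of XERICO was 0.41. The dim dehydrin genes AT2G21490 (LEA), with 7.5 and 5.5, and AT4G39130, with 5.70 and 9.30 in samples 1 and 2, were below the stricter limit on both arrays. No probe set is named here for ERD10, a dehydrin gene next to COR47 on the chromosome, or for XERO1, one next to LTI30, so these relatives could not be set beside them.

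The list of LEA and dehydrin genes by name held 7 measured genes, none of them a member, and 5 were above the lower limit. Their median log2 ratio was 0.29, with 3 brighter in sample 1 and 2 in sample 2. It was 0.15 after loess and 0.12 after quantile normalization, and 0.14 over those above the stricter limit. AT2G44060 (LEA26) had 593 in sample 1 and 479 in sample 2, for a log2 ratio of 0.31. AT2G46140 (LEA27) had 95.7 in sample 1 and 105.4 in sample 2, for a log2 ratio of -0.14. The LEA genes LEA4-5 and LEA18, the measured genes among 16 listed RD, ERD and related genes and known mainly from seeds and drying tissue, had signals of 0.50 or less and were below the lower limit on both arrays. UGT71B6, an abscisic acid glucosyltransferase and the measured gene among 13 for abscisic acid synthesis and breakdown, was also below it, at 0.30 and 0.60.

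Genes named for cold gave 6 measured probe sets, 4 of them members, with a median log2 ratio of 0.35. The list of other cold-regulated genes by locus had COR15A and COR15B as its measured genes, of 20 listed, with a median of 0.30. COR27, a cold-induced gene that also acts in the circadian clock, had 51.3 in sample 1 and 40.1 in sample 2, for a log2 ratio of 0.36. SRC2, named after a cold-regulated soybean gene, had 1222 in sample 1 and 1426 in sample 2, for a log2 ratio of -0.22 (-0.34 after loess). Leaving the members aside, the cold-named genes thus went both ways.

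The 3 measured genes named for drought were all brighter in sample 1, with a median log2 ratio of 0.24. DI21 had 355 in sample 1 and 312 in sample 2, for a log2 ratio of 0.18. DI19, a zinc finger gene, had 2177 in sample 1 and 1844 in sample 2, for a log2 ratio of 0.24 that was 0.08 after loess correction. DOR, an F-box gene that represses drought tolerance, had 7.10 and 4.50 in samples 1 and 2 and was below the stricter limit on both arrays.

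The U-box ubiquitin ligases gave a wide range of ratios, with ends set by PUB19, which was picked, and by PUB23, whose signals averaged 49.3. The range is therefore not read as a trait of the family. Over the 9 measured U-box genes the log2 ratio ran from -1.34 to 0.92 with a median of -0.04, and 4 were brighter in sample 1 and 5 in sample 2. PUB19, which was picked for its difference, was the one that reached 1.5-fold toward sample 1, where 3.68% of plant probe sets above the lower limit did. The next ratio below it was 0.25 (PUB49). Without PUB19 the median of the other 8 was -0.23, with 3 brighter in sample 1. Toward sample 2, 3 of the 9 (PUB15, PUB22 and PUB23) reached 1.5-fold, against 6.37% of those plant probe sets. PUB15, with 2.70 in sample 1 and 6.30 in sample 2, was below the stricter limit on both arrays. Of the 7 genes above that limit, PUB22 and PUB23 reached 1.5-fold toward sample 2, where 2.19% of plant probe sets above it did.

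Among the U-box genes above the stricter limit, those that went furthest the other way are, like PUB19, known from the drought response. PUB22 and PUB23 encode paired U-box ligases that dampen responses to drought and to microbial patterns. PUB23 had 27.9 in sample 1 and 70.8 in sample 2, for a log2 ratio of -1.34, or 2.54-fold brighter in sample 2. PUB22 had 20.1 in sample 1 and 34.1 in sample 2, for a log2 ratio of -0.76. PUB24, which acts with them in immunity, had 106.4 and 109.5 in samples 1 and 2, for a log2 ratio of -0.04. All 3 were above the stricter limit on both arrays. The gap between PUB19 and PUB23 was 2.27 on the log2 scale. PUB19 was picked for its difference and PUB23 had the largest ratio the other way, so nothing is read from that gap. PUB22 and PUB23 had mean signals from 20 up to 50, where the SD of the log2 ratio was 0.35. It was 0.22 from 100 up to 200, where PUB19 lies.

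The other measured U-box genes include PUB49, with 115.2 in sample 1 and 96.9 in sample 2, for a log2 ratio of 0.25. The list of stress ubiquitin ligases by locus had 5 of 14 genes measured, PUB19, XERICO, PUB22, PUB23 and PUB24, and a median log2 ratio of -0.04. PUB19 and XERICO were brighter in sample 1 and the other 3 in sample 2. PUB18 is not named among the probe sets here. The RING-H2 genes measured beside XERICO were both brighter in sample 1, and the median over the 3 was 0.32. BRH1, a brassinosteroid-responsive RING-H2 gene, had 622 in sample 1 and 499 in sample 2, for a log2 ratio of 0.32, and RHF1A had 86.0 and 77.2, for a log2 ratio of 0.16.

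**Figure D4:**
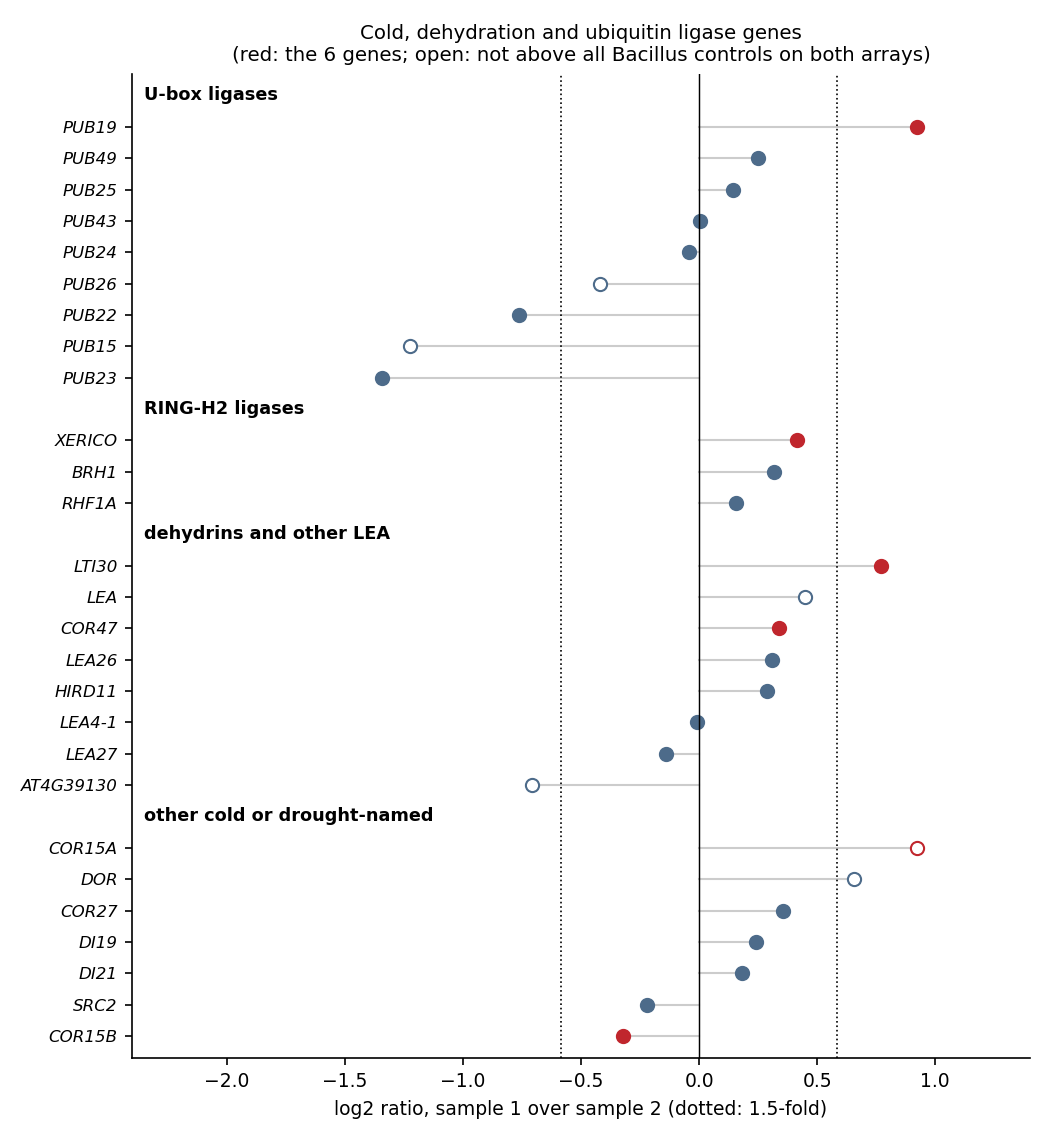
Log2 ratio of sample 1 over sample 2 for the measured genes of the cold, dehydration and ubiquitin ligase lists above the lower limit on both arrays, with the 6 genes in red, open circles where a gene was not above all Bacillus controls on both arrays, and dotted lines at 1.5-fold. The U-box genes spread from -1.34 (PUB23) to 0.92 (PUB19), and the filled circles under dehydrins and other LEA lie between -0.14 (LEA27) and 0.77 (LTI30). PUB19 and LTI30, at the upper ends, were picked for their difference, so the ranges are not compared.

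Some chromosomal neighbours of the members were measured as well. AT1G60200, the protein-coding gene after PUB19 in the RefSeq table, had 92.0 in sample 1 and 64.9 in sample 2, for a log2 ratio of 0.50. AT2G42520, beside COR15B, had 122.4 and 134.0, for a log2 ratio of -0.13. AT1G20430, beside COR47, had 537 in sample 1 and 581 in sample 2, for a log2 ratio of -0.12, where COR47 had 0.34.

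Of 25 tissue markers listed, 11 had a single-gene probe set. The xylem markers measured, GUT2 (IRX10) and IRX15, summed to 230 in sample 1 and 274 in sample 2, and the leaf markers RCA and LHCB4.1 to 896 in sample 1 and 946 in sample 2. Of the 4 cambium and phloem markers, CLE41, CLE44 and MOL1 were brighter in sample 1, with log2 ratios of 0.115, 0.16 and 0.04, and OPS was brighter in sample 2, at -0.33. They summed to 1138 in sample 1 and 1072 in sample 2, of which CLE41 gave 757 and 699. The root hair markers EXPA7 and EXPA18 summed to 30.1 and 28.6. The anther gene A9 (AT5G07230) was below the lower limit on both arrays, at 2.2 and 1.2. Per the labels, sample 1 had an average background of 79.94 and sample 2 one of 95.57. The part of tissue make-up and of background in the differences of the 6 genes was not tested.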

How the data were processed

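Per the labels, biotin-labelled cRNA from total RNA was hybridised to 1 Affymetrix ATH1 array per sample. The file deposited by the authors holds linear intensities, to 1 decimal, of 22810 probe sets. The software behind them is not stated in the labels. As the values show, the authors had scaled each array to a mean of 100.0 with the outer 2% trimmed from both ends. The intensities were rescaled to that mean by factors of 0.9999, and counts leave out the 64 control probe sets. Samples were grouped by the organism part in the labels. The log2 ratio is that of sample 1 over sample 2, with no pseudocount. Counts and medians use probe sets above the brightest TrpnX control on both arrays, unless the Bacillus limit is named, and 1.5-fold counts as a difference. The number of arrays limits the precision, and 2 samples of 1 group allow no test.

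Gene names come from the platform annotation, updated through the RefSeq gene table of TAIR10.1. That table holds no descriptions, so the 7 lists by name were matched on symbols and synonyms. No coordinates are given, as no build is named for the values, and no sequences were used here. Members and lists were chosen with earlier results of these data known. Every gene of a list with 6 or fewer measured genes is named. For longer lists the 3 brightest, the largest ratio in each direction among genes above all Bacillus controls, and any at 2-fold above them are named. Chromosomal neighbours and the list of drought, salt and osmotic genes were added after seeing the data. Alternatives were no rescaling, the same median, quantile and loess normalization (span 0.3), adding 16 before log2, other limits (2 times TrpnX, all Bacillus controls, a signal of 50, none), a 2-fold threshold and leaving out each sample. The steps were checked on simulated data with less noise than here and with 2-fold changes at signals above 50. That check does not cover dimmer genes or smaller ratios such as those of the 6 genes. Python 3.11.15 with numpy 2.4.6, pandas 2.3.3, statsmodels 0.14.6 and matplotlib 3.10.9 was used.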

Additional observations from a re-analysis of the deposited data

How the results depend on the processing

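Under the 5 planned ways of scaling or taking the ratio, each of the 6 genes kept its sign. Adding 16 to both signals cannot change a sign, and no rescaling repeats the main values, as the scale factors were 0.9999. A change of sign was thus possible only with the same median, quantile or loess normalization. The log2 ratio lay between 0.83 and 0.95 for PUB19, 0.66 and 0.79 for LTI30, 0.39 and 0.44 for XERICO, 0.32 and 0.36 for COR47, 0.37 and 1.03 for COR15A, and -0.32 and -0.20 for COR15B. The median of the 6 lay between 0.38 and 0.62. Leaving out COR15A, which was not above all Bacillus controls, the median of the other 5 was 0.42. The 2 of them that reached 1.5-fold toward sample 1 were LTI30 and PUB19, where 1.6% of plant probe sets above that limit did. Both were picked for this difference and are part of that median, so nothing is read from either value. Of 63 recomputed medians of pathway lists, 62 moved by less than the spread within the list, and with no limit that of the LEA and dehydrin genes was 0.00 (0.13 after adding 16, 0.14 with the limit doubled). Where both signals reached 50, the median of the stress ubiquitin ligases was 0.42 and that of the U-box genes 0.13, against -0.04 for both lists at the main limit. This limit drops PUB22, and also PUB23, whose signal was below 50 in sample 1 alone. The 0.42 is thus the ratio of the member XERICO, and nothing is read from either median. Both changes of median counted as less than the spread within the list, so that yardstick does not show that list medians are stable. Scaling to the hybridisation controls, chosen after seeing the data, shifts every ratio by the same amount. It gave 0.14 for COR15A, -1.10 for COR15B, -0.44 for COR47, -0.012 for LTI30, -0.37 for XERICO, 0.14 for PUB19 and a median of -0.19. List medians were then -0.44 (dehydrins), -0.82 (stress ubiquitin ligases and U-box genes), -0.49 (LEA and dehydrin genes), -0.43 (cold-named), -0.54 (drought-named) and -0.46 (RING-H2). At 1.5-fold, 714 plant probe sets were brighter in sample 1 and 1234 in sample 2. The counts were 919 and 992 after loess and 921 and 1001 after quantile normalization, 470 and 836 with the limit doubled, 255 and 348 under the Bacillus limit, 60 and 93 where both signals reached 50, 1632 and 2331 with no limit, 108 and 217 after adding 16, 58 and 15687 after scaling to the hybridisation controls, and 176 and 453 at 2-fold. Stricter limits test fewer probe sets, and the cause of the other changes was not tested. From either sample alone, between 6 and 6 of the members were above the lower limit, and signal over background limits what can be read of COR15A and COR15B. The planned counts of promoter motifs were not run, as no sequences were used here. No paired analysis was possible because the samples form 1 group.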

Other observations

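A further 6 genes of drought, salt and osmotic stress could be named by symbol, a list made after seeing the data. All 6 were above the Bacillus controls on both arrays, none reached 1.5-fold, and 3 were brighter in each sample, with a median log2 ratio of 0.03. TINY (AT5G25810, listed as tny), a DREB-type transcription factor, had 106.8 in sample 1 and 81.8 in sample 2, for a log2 ratio of 0.38. Its relative TINY2 had 17.9 in sample 1 and 19.3 in sample 2, for a log2 ratio of -0.11. OSM34, an osmotin, had 142.3 in sample 1 and 197 in sample 2, for a log2 ratio of -0.47. RD2 had 1363 in sample 1 and 1207 in sample 2, for a log2 ratio of 0.18 that was 0.06 after loess correction. HVA22C, of a family induced by abscisic acid, had 344 in sample 1 and 307 in sample 2, for a log2 ratio of 0.17. STZ, a stress-induced zinc finger gene, had 1162 in sample 1 and 1264 in sample 2, for a log2 ratio of -0.12 (-0.23 after loess).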
